A study of Mus musculus with 12 samples.

Results

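The cerebellum of mice homozygous for the long-repeat Sca6 knockin allele (MPI 118Q/118Q) was set directly against that of mice homozygous for the short-repeat allele (MPI 11Q/11Q). The 3 arrays titled as MPI 118Q/118Q knockin and the 3 titled as MPI 11Q/11Q knockin were taken, which is 6 of the 12 arrays of the series. The other 6 arrays came from wild type littermates, 3 of each line, and did not enter this contrast. All mice were 6 weeks old, on a C57BL/6 background, and both groups compared carried a knockin allele on both chromosomes, so the groups differ by the length of the repeat and by the line. Total RNA was hybridised to 1 expression array per mouse, and the deposited values are log2 levels per probe set. Sex, the clones behind each line and array dates are not stated in the labels. The labels give 3 mice a group but not whether RNA was prepared side by side.

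SCA6, spinocerebellar ataxia type 6, is a dominantly inherited ataxia caused by a CAG repeat in CACNA1A, which lengthens a run of glutamines in the alpha1A pore protein of P/Q-type calcium channels. Purkinje cells, the output neurons of the cerebellar cortex, carry most of their calcium current through this channel and are the cells most affected in the disease. Calcium entering a Purkinje cell dendrite acts together with mGluR1 signalling and release from the endoplasmic reticulum, and is cleared by pumps and by buffers such as calbindin. A comparison of a long with a short repeat, both in knockin mice, asks which genes follow the repeat length rather than the knockin construct, as far as the lines are otherwise alike.

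Of 13 genes that define cerebellar cell types, 12 passed the filter on low values. The Purkinje, granule cell, Bergmann glia and myelin genes among them were well expressed on every array. Pcp2, a Purkinje cell gene, was at 10.62, 10.66 and 10.72 in the 118Q knockins and at 10.62, 10.55 and 10.42 in the 11Q knockins (log2 level, replicates 1 to 3). The granule cell genes Gabra6, Neurod1 and Cbln3 differed by -0.00, -0.07 and -0.08 on the log2 scale, and none was called. Ttr, the transthyretin gene of the choroid plexus, was at 11.79, 11.39 and 8.66 in the 118Q knockins and at 7.68, 5.26 and 11.79 in the 11Q knockins, so its level varied from mouse to mouse in both groups. In bulk tissue, fewer cells of a type and less RNA per cell cannot be told apart.

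RNA and spike-in measures also separated the groups. The 18S ribosomal RNA probe sets were at 9.23, 8.63 and 8.56 in the 118Q knockins and at 10.10, 10.27 and 10.36 in the 11Q knockins. The mean of the 4 poly-A spike-in controls, bacterial transcripts added to the RNA before labelling, was 4.21, 4.48 and 4.27 against 2.93, 3.23 and 2.31. Neither measure overlapped between the groups; the differences were -1.44 and 1.5, each with an exact two-sided permutation p of 0.1, the smallest that 3 against 3 arrays allow. The wild types of the same lines differed in the same directions, by -0.52 and 0.65. The hybridisation controls, which are added after labelling, differed by -0.06 and overlapped (exact permutation p = 0.6). The difference between probe sets at the 3′ and 5′ ends of a transcript, a measure of RNA integrity and labelling that grows as RNA is degraded, was lower in the 118Q knockins: 1.08, 1.15 and 1.04 against 1.39, 1.36 and 1.19 for Actb, and -0.16, -0.12 and -0.16 against 0.13, 0.06 and 0.05 for Gapdh. Neither overlapped (-0.22 and -0.23, exact permutation p = 0.1 each), and the wild types differed by -0.11 for both. The part of these measures in the gene differences was not tested beyond fits with 18S RNA or the spike-ins as a covariate, given further on.

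**Figure D1:**
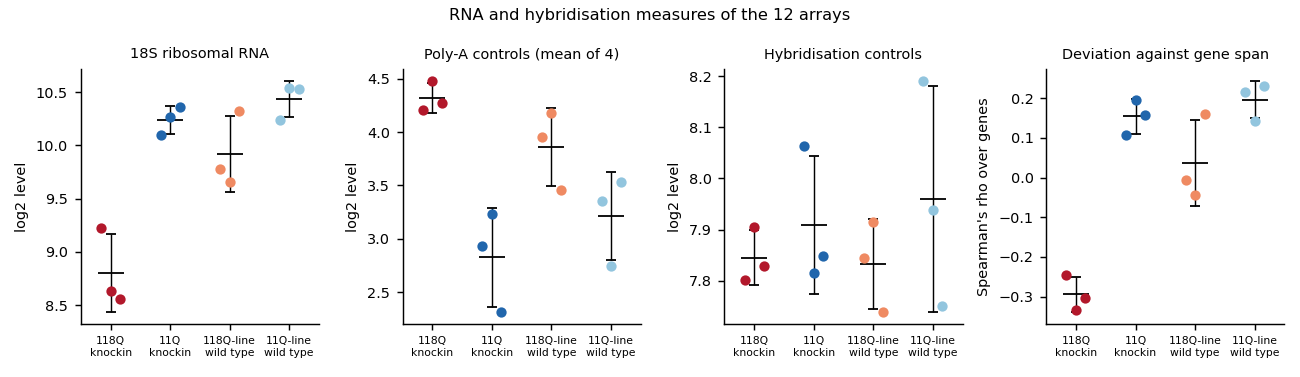
Per-array measures in the 4 groups of 3 arrays: 18S ribosomal RNA, the mean of 4 poly-A spike-in controls and the hybridisation controls on the log2 scale, and the Spearman correlation of each array's deviations with gene span. Points are arrays and bars the mean ± SD; 18S RNA averaged 8.80 ± 0.37 in the 118Q knockins and 10.24 ± 0.13 in the 11Q knockins, while the hybridisation controls overlapped.

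The 118Q knockins were also less alike among themselves than the 11Q knockins. Correlations between arrays lay between 0.982 and 0.992 within the 118Q knockins, between 0.988 and 0.993 within the 11Q knockins and between 0.973 and 0.984 across the groups. Deviations of replicates 2 and 3 of the 118Q knockins from the mean of the 12 arrays, which hold the group difference too, correlated at 0.64 over genes, and those of replicate 1 correlated with theirs at 0.13 and 0.24. Replicate 1 lay nearer to the 11Q knockins for many Purkinje cell genes, as the values of Slc1a6, Dner and Calb1 given further on show.

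Of 12672 genes tested, 1732 (13.7%) were called between the knockins at an adjusted p below 0.05 in limma. More were higher in the 118Q knockins than lower: 1276 genes (10.1%) rose and 456 (3.6%) fell. The median difference over all genes was 0.09, and 62.5% of genes lay above 0. Among all genes, the 3 arrays of the 118Q knockins lay above all 3 of the 11Q knockins for 26.5% and below all 3 for 11.6%, and 1712 of the 1732 called genes showed no overlap. The typical change was modest. The median size of a called difference was 0.55 log2 units against a median standard error of 0.14, and 101 called genes passed a size of 1 log2 unit, 56 higher and 45 lower.

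The number called depended on single arrays and on the RNA measures. Leaving out 118Q replicate 3 left 319 calls, 118Q replicate 2 left 624, and 11Q replicates 1, 2 and 3 left 721, 712 and 607, whereas 2274 genes were called without 118Q replicate 1. All 1732 called genes kept their direction in every one of these fits. This was nearly fixed in advance: for the 1712 without overlap between the groups, leaving out 1 array cannot turn the sign. With 18S RNA as a covariate, or with the mean of the poly-A controls, 0 genes were called in limma (1536 and 852 at an unadjusted p below 0.05), and the median standard error rose from 0.139 to 0.323 and 0.283, with both measures lying apart between the groups. Of the 1732 genes, 1509 and 1714 kept their direction in these fits. Of 144 called genes that the rule for naming picked out, 66 kept the call whichever array was left out, and the other 78 all lost it without 118Q replicate 3, 13 of them only then.

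Cacna1a, the gene that carries the repeat, was lower in the 118Q knockins. Its brightest probe set was at 5.67, 5.65 and 5.50 in the 118Q knockins and at 6.28, 6.42 and 6.17 in the 11Q knockins. All 3 arrays of the long-repeat mice lay below all 3 of the short-repeat mice, and the difference was -0.68 ± 0.15 (SE; adjusted p = 0.0162 in limma), a 1.6-fold lower level. The other 2 probe sets of Cacna1a above the filter differed by -0.77 and -0.25. Wild types of the 118Q line were at 6.09, 5.54 and 6.19 and those of the 11Q line at 6.36, 6.25 and 6.48, a difference of -0.42 with no knockin allele in either group. The knockin difference did not exceed the wild type difference by the test of one difference against the other (-0.26 ± 0.22, unadjusted p = 0.249 in limma). The call was lost without 11Q replicate 2 (adjusted p = 0.0605) or 118Q replicate 3 (0.0724), and the difference was -0.17 with 18S RNA as a covariate.

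The largest falls included several neuronal and vascular genes. Fgf14, which encodes an intracellular partner of voltage-gated sodium channels and is mutated in another spinocerebellar ataxia, was at 7.01, 5.98 and 6.48 in the 118Q knockins and at 8.49, 8.52 and 8.40 in the 11Q knockins. The groups were far apart: the difference was -1.98 ± 0.20 (adjusted p = 0.000862), a 3.94-fold lower level, and the call held whichever array was left out (highest adjusted p 0.00913). Other probe sets of Fgf14 differed by -1.82 and -0.21. Mid1, an X-linked ubiquitin ligase gene, was at 2.70, 3.58 and 2.75 against 5.14, 5.95 and 5.36 (-2.47 ± 0.42, adjusted p = 0.00735), the largest fall in size among the genes named. The long noncoding RNA Kcnq1ot1 of the imprinted Kcnq1 region was at 3.59, 3.64 and 4.06 against 5.20, 5.26 and 5.37 (-1.51 ± 0.17, adjusted p = 0.0018). Other, dimmer probe sets of Kcnq1ot1 differed by -1.43, -0.23 and -0.56 (unadjusted p = 2.02e-06, 0.406 and 0.0985 in limma). F2r, the thrombin receptor gene, fell by 2.23 ± 0.60, St6galnac3, a sialyltransferase gene, by 1.98 ± 0.29, and Vwf, the von Willebrand factor gene of endothelium, by 1.81 ± 0.37. Eml6, Thsd7a, Shisa6, which encodes an AMPA receptor partner, and Alpk2 fell by 1.51, 1.45, 1.35 and 1.24. Of these, F2r, Vwf, Thsd7a and Shisa6 lost the call without 118Q replicate 3 (adjusted p = 0.102, 0.0558, 0.0623 and 0.0648), and F2r also without 118Q replicate 2 or any array of the 11Q knockins (0.0502 to 0.112), and Shisa6 without 118Q replicate 2 (0.0525).

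Mir1931 and Mtm1 also stood among the largest falls. Both were lower in the wild types of the 118Q line too, Mir1931 by nearly as much. Mir1931 differed by -1.66 between the knockins and by -1.41 between the wild types. Mtm1, the myotubularin gene, differed by -1.50 and -0.97. The class I histocompatibility genes H2-K1 and H2-D1 were lower by 1.86 and 1.67 and H2-Bl was higher by 2.17 ± 0.33, but these genes are near copies of each other, and other probe sets assigned to H2-D1 differed by between -2.66 and 1.90. Which histocompatibility gene each probe set measures is uncertain, and no direction is drawn for them.

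Among the largest rises were immediate early genes, genes that glucocorticoids induce, and genes of myeloid cells. Cebpd, a transcription factor gene, was at 4.23, 4.11 and 4.51 in the 118Q knockins and at 2.42, 2.75 and 2.81 in the 11Q knockins (1.62 ± 0.30, adjusted p = 0.00887). Cxcl14, a chemokine gene, was at 5.48, 5.19 and 5.32 against 4.33, 3.80 and 2.87 (1.67 ± 0.30, adjusted p = 0.00836). Tyrobp, the signalling adaptor of microglial receptors, was at 6.05, 5.36 and 5.78 against 4.60, 4.43 and 4.21 (1.32 ± 0.19, adjusted p = 0.00493). All 3 calls held whichever array was left out. The rule for naming took the largest rises only from called genes without overlap, so the lack of overlap was fixed in advance. Fhit rose by 1.44 ± 0.21, Bambi, a decoy receptor of TGF-beta signalling, by 1.37 ± 0.28, and Zfp874a by 2.07 ± 0.49. Pdgfrl was called higher at 2.48, 2.38 and 3.13 against 0.90, 1.19 and 1.09, but passed the filter on dim genes (a mean of 1.58) only through the 118Q knockins, so no size is given for it. Of the genes called higher, 9 passed in that way, and 2 of those called lower passed only through the 11Q knockins. Bambi lost the call without 118Q replicate 3 (adjusted p = 0.0606), and Zfp874a without 118Q replicates 2 or 3 or 11Q replicates 2 or 3 (0.0617 to 0.0706). S100a9, which encodes a calcium-binding protein of neutrophils and monocytes, rose by 1.51 ± 0.30, while the wild types of the 118Q line were higher by 1.12.

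**Figure D2:**
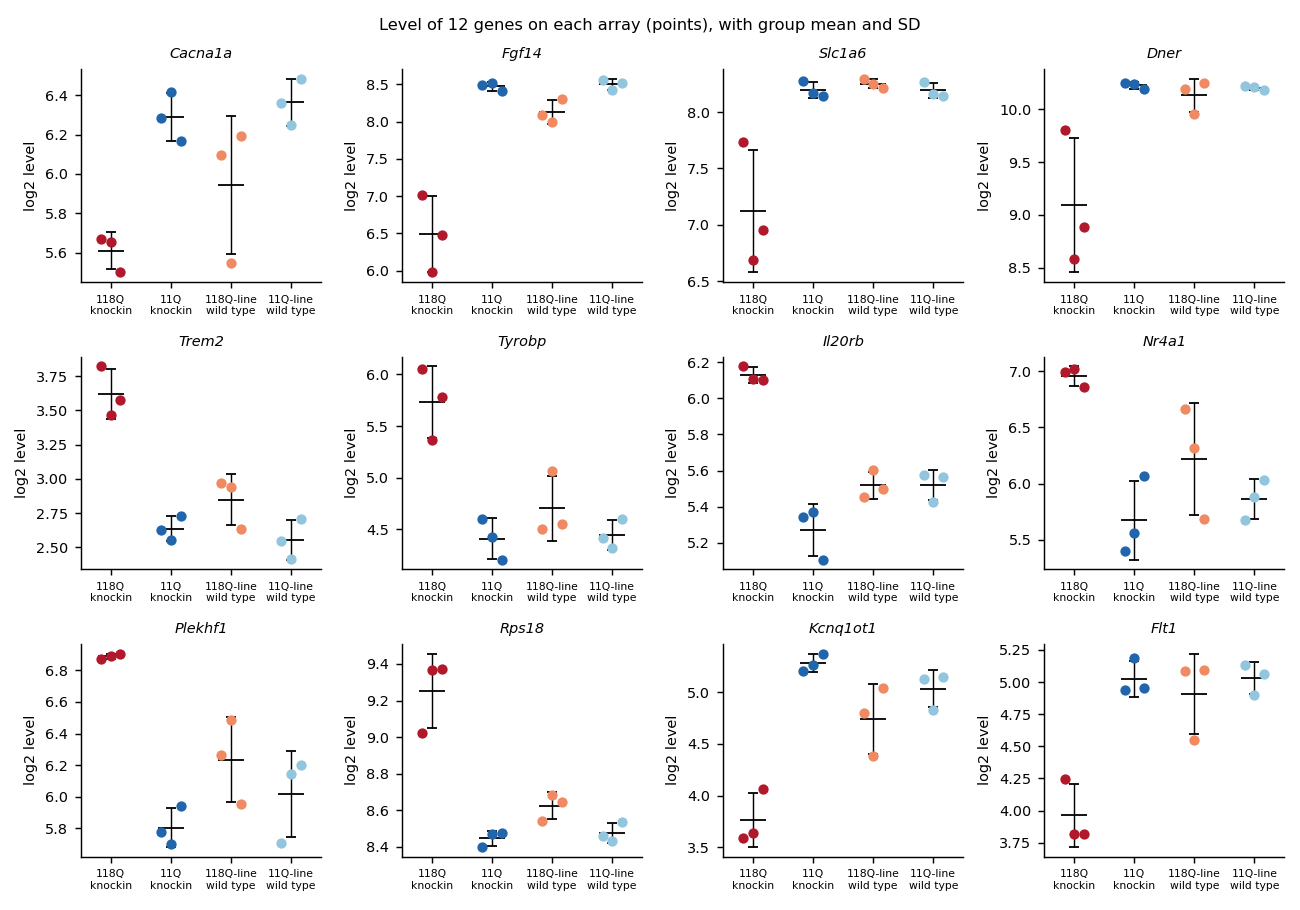
Log2 levels of 12 genes in the 4 groups of 3 arrays; points are arrays and bars the mean ± SD. Fgf14, Slc1a6, Dner, Flt1 and Kcnq1ot1 lie lower and Trem2, Tyrobp, Il20rb, Nr4a1, Plekhf1 and Rps18 higher in the 118Q knockins than in the 11Q knockins, and 118Q replicate 1 lies nearest to the 11Q knockins for Slc1a6 and Dner.

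Genes of Purkinje cells were lower in 2 of the 3 long-repeat mice. Of 46 listed markers, 39 were measured; 32 lay below 0 and 7 above, 11 fell and 0 rose, where 3.6% of all genes fell. Their median difference was -0.37, beside 0.09 over all genes. By array, the median deviation of the list was 0.01, -0.47 and -0.46 in the 118Q knockins and 0.09, 0.10 and 0.00 in the 11Q knockins, so replicate 1 of the 118Q knockins lay within the range of the 11Q knockins. The list's median in the wild types was 0.03. With 18S RNA as a covariate it turned to 0.11, and with the poly-A mean it was -0.34.

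Slc1a6, the EAAT4 glutamate transporter of Purkinje cell spines, was at 7.73, 6.69 and 6.95 in the 118Q knockins and at 8.27, 8.17 and 8.15 in the 11Q knockins (-1.07 ± 0.20, adjusted p = 0.00886). All 118Q arrays lay below all 11Q arrays, with replicate 1 nearest to them, and the call held whichever array was left out. Dner, a Notch-related surface protein of Purkinje cells, was at 9.81, 8.58 and 8.88 against 10.25, 10.24 and 10.19 (-1.14 ± 0.23, adjusted p = 0.0109). Plxdc1 and Icmt, a carboxyl methyltransferase gene, fell by 1.04 ± 0.21 and 0.96 ± 0.19. Without 118Q replicate 3 the adjusted p was 0.0573 for Dner, 0.0535 for Plxdc1 and 0.0572 for Icmt. Calb1, which encodes the calcium buffer calbindin, was at 10.56, 9.54 and 9.96 against 10.82, 10.71 and 10.56, and 118Q replicate 1 overlapped the 11Q knockins (-0.68 ± 0.19, adjusted p = 0.0388). Calb1 lost its call without 118Q replicates 2 or 3, any array of the 11Q knockins, or any of 3 wild type arrays (adjusted p = 0.0509 to 0.126). Pcp2, equally a Purkinje cell gene, was not called (0.14, adjusted p = 0.433).

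The calcium handling and mGluR1 genes of Purkinje cells were mostly lower too. Of 39 listed, 34 were measured, 14 fell, 1 rose, and the median was -0.31, against -0.03 in the wild types and 0.06 with 18S RNA as a covariate. The pumps were the clearest members. Atp2a2, the SERCA2 pump that refills the endoplasmic reticulum, was at 9.88, 9.44 and 9.57 against 10.43, 10.40 and 10.38 (-0.77 ± 0.12, adjusted p = 0.00586). Atp2b2, the PMCA2 pump of the plasma membrane, was at 8.31, 8.15 and 8.22 against 8.73, 8.80 and 8.86 (-0.57 ± 0.10, adjusted p = 0.00836), although its other probe sets differed by 0.77 and -0.75. Ryr2, an endoplasmic reticulum release channel gene, fell by 0.66 ± 0.15, a call lost without 118Q replicates 2 or 3 or 11Q replicates 2 or 3 (adjusted p = 0.0601 to 0.0649). Car8, an inhibitor of the IP3 receptor, was at 9.84, 9.30 and 9.41 against 10.03, 10.13 and 10.05 (-0.55 ± 0.15, adjusted p = 0.0289, and 0.0657 to 0.113 without 118Q replicates 2 or 3 or any array of the 11Q knockins). The rise was that of Itpkb, which phosphorylates IP3: 5.99, 6.17 and 6.17 against 5.27, 5.47 and 5.34 (0.76 ± 0.14, adjusted p = 0.00878). Its other, dimmer probe set went the other way (-0.56, unadjusted p = 0.0412 in limma), and the mean of both gave 0.10.

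Among voltage-gated calcium channel genes, 7 of 10 pore subunits were measured, 3 fell and 0 rose, with a median of -0.44 against -0.15 in the wild types. Beside Cacna1a, these were Cacna1g, the T-type pore, at 6.33, 5.88 and 5.80 against 6.84, 6.86 and 6.81 (-0.84 ± 0.16, adjusted p = 0.0102), and Cacna1b, the N-type pore (-0.44 ± 0.13, adjusted p = 0.0409). Other, dimmer probe sets of Cacna1b differed by -0.03, -0.29 and -0.30 (unadjusted p = 0.88, 0.148 and 0.22 in limma). The wild types differed by -0.04 for Cacna1g and by -0.30 for Cacna1b. Of 14 auxiliary subunits, 12 were measured, 2 fell and 1 rose. Cacna2d2, the alpha2delta subunit of Purkinje cells whose loss gives the ducky mouse, was at 7.08, 6.45 and 6.65 against 7.49, 7.67 and 7.56 (-0.84 ± 0.14, adjusted p = 0.00723), and this call held whichever array was left out. Cacna2d1 fell by 0.38, and Cacnb1 was called higher by 0.50 (adjusted p = 0.0374 and 0.0497), but the other probe set of Cacnb1 differed by -0.43 (unadjusted p = 0.0286 in limma) and the mean of both by 0.03. Without 118Q replicate 3 the adjusted p was 0.0558 for Cacna1g, 0.107 for Cacna1b, 0.108 for Cacna2d1 and 0.0873 for Cacnb1, and the last 3 also lost the call without other arrays, up to 0.142, 0.132 and 0.171.

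Sodium channel genes and their partners fell where they were called: 14 of 17 were measured, 4 fell and 0 rose, with a median of -0.30 that was -0.07 with 18S RNA as a covariate. Scn8a, the resurgent-current channel of Purkinje cells, was at 7.42, 7.20 and 7.38 against 8.17, 8.23 and 8.23 (-0.88 ± 0.11, adjusted p = 0.00407). Ank2 was at 8.88, 8.81 and 8.97 against 9.63, 9.72 and 9.59 (-0.76 ± 0.10, adjusted p = 0.00407), and Ank3, the ankyrin of the axon initial segment, fell by 0.54 ± 0.11. These 3 calls, and that of Fgf14, held whichever array was left out. Potassium channels showed no common direction. Of 44, 32 were measured, 2 rose and 3 fell (15.6% called, beside 13.7% of all genes). Their median of 0.05 turned negative without 118Q replicate 3 (-0.03), with the mean of probe sets (-3e-04) and with each probe set kept (-0.14). Kcnn2, the SK2 channel that shapes Purkinje cell firing, was at 5.69, 5.79 and 5.86 against 4.96, 5.25 and 5.13 (0.67 ± 0.13, adjusted p = 0.0107), and Kcnd3, mutated in another ataxia, fell by 0.60 ± 0.12. Without 118Q replicate 3 the adjusted p of Kcnn2 and Kcnd3 was 0.0558 and 0.0584.

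Across a list of 36 genes linked to ataxia that Purkinje cells express, 26 were measured, 21 lay below 0, 9 fell and 0 rose, and the median was -0.27, or -0.07 with 18S RNA as a covariate. Fgf14, Slc1a6, Cacna1g, Cacna1a, Kcnd3 and Car8, described above, are among the 9. Atxn2, the gene of SCA2, was at 6.79, 6.56 and 6.72 against 7.21, 7.31 and 7.24 (-0.57 ± 0.10, adjusted p = 0.00867), with a wild type difference of -0.15. Of the 9 polyglutamine disease genes, 8 were measured and 3 fell: Atxn2, Cacna1a and Htt, the huntingtin gene (-0.66 ± 0.17, adjusted p = 0.0256). Htt lost the call without 11Q replicates 1 or 2 or 118Q replicates 2 or 3 (adjusted p = 0.0617 to 0.086).

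Genes of other neurons were lower where they were called. Granule cells, by far the most numerous neurons of the cerebellum, had 29 of 30 listed markers measured, 3 fell and 0 rose, and the median was -0.08. Markers of interneurons and Golgi cells had a median of -0.37, with 5 of 21 falling, but 0.01 with 18S RNA as a covariate. Kit, a receptor of molecular layer interneurons, was at 7.60, 6.72 and 6.96 against 7.95, 8.20 and 8.16 (-1.01 ± 0.21, adjusted p = 0.0129; 0.0602 without 118Q replicate 3). Slc32a1, the vesicular GABA transporter of interneurons and Purkinje cells, fell by 0.92 ± 0.23, a call lost without 5 of the knockin arrays in turn (adjusted p = 0.053 to 0.0924). Glutamate transporters and receptors had 5 of 26 falling and GABA and glycine genes 2 of 17, with medians of -0.15 each, and 0.05 for the GABA and glycine genes with 18S RNA as a covariate. Genes of synaptic vesicles and release had 4 of 47 falling, with a median of -0.13.

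Genes of the neuronal cytoskeleton and scaffold were mostly lower. Of 50, 48 were measured, 40 lay below 0, 16 fell and 2 rose, with a median of -0.20 against -0.01 in the wild types. Tuba8, an alpha tubulin, was at 5.49, 4.89 and 5.06 against 6.01, 6.27 and 6.25 (-1.03 ± 0.15, adjusted p = 0.00493). Dync1h1, the heavy chain of the retrograde motor dynein, was at 7.66, 7.68 and 7.66 against 8.47, 8.53 and 8.68 (-0.89 ± 0.15, adjusted p = 0.00658), and Dst, a large cytoskeletal linker, was at 7.64, 7.60 and 7.59 against 8.31, 8.26 and 8.30 (-0.68 ± 0.10, adjusted p = 0.00506). For Dync1h1 and Dst all 3 long-repeat mice lay within a narrow band below the short-repeat mice, replicate 1 included, and the 3 calls held whichever array was left out.

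Microglial genes were higher in all 3 long-repeat mice. Of 42 listed markers, 32 were measured; 29 lay above 0, 12 rose and 0 fell, where 10.1% of all genes rose. The median was 0.53, beside 0.16 in the wild types, and stayed above 0 with 18S RNA as a covariate (0.63), with the poly-A mean (0.28) and with the trend on gene span removed (0.37). The median deviation of the list by array was 0.48, 0.21 and 0.36 in the 118Q knockins and -0.10, -0.12 and -0.29 in the 11Q knockins, without overlap. Trem2, the lipid receptor of microglia, was at 3.82, 3.46 and 3.58 against 2.62, 2.55 and 2.73 (0.99 ± 0.13, adjusted p = 0.00407), and Tyrobp, its adaptor, is given above. Ly86 was at 5.72, 5.30 and 5.79 against 4.44, 4.81 and 4.11 (1.15 ± 0.22, adjusted p = 0.00902). The 3 chains of complement C1q, which microglia make in brain, all rose: C1qa by 1.00, C1qb by 1.08 and C1qc by 0.84. C1qc lost the call without 11Q replicates 2 or 3 or 118Q replicate 3 (adjusted p = 0.0546 to 0.0808). Fcer1g, the Fc receptor chain, rose by 0.80 ± 0.15, and Cd68, a lysosomal protein of phagocytes, by 1.21 ± 0.28. Cd68 lost the call without 11Q replicate 3 (adjusted p = 0.0653) or 118Q replicate 3 (0.0676), and the calls of Trem2, Tyrobp, Ly86 and Fcer1g held whichever array was left out.

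Genes of the disease-associated microglial state had 7 of 23 rising and 0 falling, with a median of 0.35. Apoe, made by astrocytes and activated microglia, was at 10.04, 9.69 and 9.83 against 9.12, 9.14 and 9.19 (0.70 ± 0.13, adjusted p = 0.00844), and Cd52 was at 3.83, 2.71 and 3.46 against 2.00, 2.05 and 1.85 (1.37 ± 0.24, adjusted p = 0.0076). Of the cytokine, chemokine and NF-kB genes, 22 of 42 were measured, 6 rose and 0 fell. Il20rb, a subunit of the receptor of the IL-20 cytokines, was at 6.18, 6.11 and 6.10 against 5.34, 5.37 and 5.11 (0.86 ± 0.10, adjusted p = 0.0024), with a wild type difference of -0.00. Il33, an alarmin of glia, rose by 0.96 ± 0.22 and Tgfb3 by 0.79 ± 0.17; without 118Q replicate 3 their adjusted p was 0.0573 and 0.0646, and it lay between 0.0515 and 0.0635 for Il33, and at 0.053 and 0.0534 for Tgfb3, without other arrays. The Toll-like receptor list had 2 of 23 rising (8.7%), where 10.1% of all genes rose. These were S100a8 and S100a9, both also higher in the wild types of the 118Q line (by 0.99 and 1.12). S100a8 lost the call without any array of the 118Q knockins or 11Q replicates 1 or 2 (adjusted p = 0.067 to 0.115). Interferon-stimulated genes had 35 of 44 measured, 0 rising and 2 falling (5.71% called, beside 13.7% of all genes). Their median was -0.04, and 0.14 without 11Q replicate 1. Of these Ifitm3 was at 5.76, 5.73 and 5.64 against 6.50, 6.13 and 6.11 (-0.53 ± 0.13, adjusted p = 0.0236, and 0.0649 to 0.0926 without 11Q replicate 1 or 118Q replicates 2 or 3). Of 18 complement and antigen presentation genes, 4 rose, the C1q chains and H2-Aa, and 2 were called lower, H2-K1 and H2-D1, for which no direction is drawn. H2-Aa, a dim class II gene, lost the call without any of the 6 knockin arrays or 3 of the wild type arrays (adjusted p = 0.0555 to 0.133).

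Immediate early genes, which neurons switch on soon after activity, were mostly higher. Of 41, 33 were measured, 29 lay above 0, 8 rose and 0 fell, with a median of 0.41 against 0.12 in the wild types. Nr4a1 was at 6.99, 7.02 and 6.86 against 5.40, 5.56 and 6.07 (1.28 ± 0.22, adjusted p = 0.00781), and its call held whichever array was left out. Npas4, an activity-dependent transcription factor of neurons, was at 3.18, 3.91 and 3.97 against 1.87, 2.25 and 2.00 (1.64 ± 0.37, adjusted p = 0.0159). Nr4a2 and Nr4a3 rose by 1.33 ± 0.34 and 1.86 ± 0.50, but another probe set of Nr4a3 differed by 0.23, and both went below 0 with the poly-A mean as a covariate (-0.10 and -0.02). Without 118Q replicate 3 the adjusted p was 0.0712 for Npas4, 0.0828 for Nr4a2 and 0.107 for Nr4a3, and all 3 also lost the call without other knockin arrays (0.0525 to 0.101). Fos differed by 1.53 and was not called (adjusted p = 0.0528).

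Genes that glucocorticoids induce were also mostly higher. Of 34, 32 were measured, 30 lay above 0, 10 rose and 0 fell, and the median was 0.42, against 0.04 in the wild types and 0.59 with 18S RNA as a covariate. By array the median deviation was 0.49, 0.11 and 0.34 in the 118Q knockins and -0.05, -0.25 and -0.36 in the 11Q knockins. Plekhf1, an endosomal protein, was at 6.87, 6.89 and 6.91 against 5.78, 5.70 and 5.94 (1.08 ± 0.15, adjusted p = 0.00493). Sgk1, a kinase that is a standard glucocorticoid target, was at 8.43, 7.97 and 8.05 against 6.62, 6.86 and 6.96 (1.34 ± 0.27, adjusted p = 0.0111). Arrdc2 was at 4.20, 3.73 and 4.11 against 2.71, 2.21 and 2.46 (1.56 ± 0.25, adjusted p = 0.00629). Pdk4, which turns off pyruvate dehydrogenase, and Cdkn1a, the p21 cell cycle inhibitor, rose by 1.32 ± 0.23 and 1.31 ± 0.21. The groups did not overlap for any of these 5 genes, as for nearly all called genes. All 5 calls held whichever array was left out.

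The promoter of Sgk1 is shown because the glucocorticoid response element is rare in such short windows. The half-sites AGAACA and TGTTCT, separated by any 3 bases and searched on both strands of the 250 bases before each start in RefSeq (GRCm38.p6), were in 3 of 32851 promoters and in 1 of the 40 promoters of the glucocorticoid-induced list, that of an Sgk1 start. The window lies at chr10:21993640-21993889 on the plus strand, 1 of several Sgk1 starts; capitals mark the match, which begins at position -189 relative to the start. A match describes these letters and is not evidence of binding.
Sgk1: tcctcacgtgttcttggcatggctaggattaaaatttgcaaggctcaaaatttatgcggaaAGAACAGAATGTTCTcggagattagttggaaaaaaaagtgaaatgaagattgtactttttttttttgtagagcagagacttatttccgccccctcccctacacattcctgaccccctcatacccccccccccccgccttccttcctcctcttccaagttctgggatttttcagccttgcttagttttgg

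Cytosolic ribosomal protein genes were higher in the 118Q knockins. Of 79 listed, 43 were measured by a probe set with 1 gene symbol, and all 43 lay above 0; 35 rose and 0 fell, with a median of 0.47 against 0.11 in the wild types. The median was 0.28 with 18S RNA as a covariate, 0.37 with the poly-A mean and 0.26 with the trend on gene span removed. Rps18 was at 9.02, 9.37 and 9.37 in the 118Q knockins and at 8.40, 8.47 and 8.47 in the 11Q knockins (0.81 ± 0.11, adjusted p = 0.0045). Rps27 was at 4.28, 4.39 and 4.18 against 3.42, 3.47 and 3.57 (0.80 ± 0.11, adjusted p = 0.00407), and Fau and Rps15 rose by 0.63 ± 0.10 and 0.72 ± 0.12. The groups did not overlap for these 4, as for nearly all called genes, and the calls held whichever array was left out. Ribosomal protein genes have many processed pseudogenes, so probe sets may read near copies. Mitochondrial ribosomal proteins, encoded in the nucleus, had 77 of 79 measured, 72 above 0, 33 rising and 0 falling, with a median of 0.37 against 0.08 in the wild types and 0.18 with the span trend removed. Mrpl33 was at 4.80, 5.05 and 4.89 against 4.15, 4.36 and 4.17 (0.69 ± 0.11, adjusted p = 0.00595).

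Promoters of ribosomal protein genes often hold the ETS motif CCGGAAGT, and examples are shown from members that rose. On both strands of the 250 bases before the start, the motif was in 18.2% of the promoters of cytosolic ribosomal genes (8 of 44) and 13.5% of those of mitochondrial ribosomal genes (10 of 74), beside 5.3% of the promoters of all genes tested (699 of 13181) and 2.88% of all promoters in the table. It was in 6.7% of the promoters of genes that rose and 1.43% of those of genes that fell. Of the 8 cytosolic genes with the motif, 7 rose, and Rps25 was not called (0.30, adjusted p = 0.232). Of the 10 mitochondrial genes with it, 4 rose. With or without the motif, 35 of 43 cytosolic genes (81.4%) and 33 of 77 mitochondrial genes (42.9%) rose, so the counts do not set the genes with the motif apart. Whether the motif has a part in the rise was not tested. The sequences below are from RefSeq (GRCm38.p6), 5′ to 3′ up to the base before the start, with the motif in capitals, written ACTTCCGG where it lies on the other strand: Rps18 at chr17:33955666-33955915 (minus strand), Rpl35 at chr2:39005132-39005381 (minus strand) and Mrps18c at chr5:100798509-100798758 (plus strand). Rpl35 rose by 0.79 ± 0.14 and Mrps18c by 0.65 ± 0.13 (adjusted p = 0.00878 and 0.0096). A match is a description of the letters, not a bound site.
Rps18: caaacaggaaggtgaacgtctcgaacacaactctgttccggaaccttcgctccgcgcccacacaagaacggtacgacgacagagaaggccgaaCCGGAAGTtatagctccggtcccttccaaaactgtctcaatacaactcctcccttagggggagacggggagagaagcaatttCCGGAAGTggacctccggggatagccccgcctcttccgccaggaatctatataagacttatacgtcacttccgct
Rpl35: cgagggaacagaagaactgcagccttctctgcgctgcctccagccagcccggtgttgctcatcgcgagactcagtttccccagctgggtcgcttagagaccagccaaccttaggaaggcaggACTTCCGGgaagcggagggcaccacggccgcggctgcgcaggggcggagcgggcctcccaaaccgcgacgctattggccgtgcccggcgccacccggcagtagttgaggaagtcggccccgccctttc
Mrps18c: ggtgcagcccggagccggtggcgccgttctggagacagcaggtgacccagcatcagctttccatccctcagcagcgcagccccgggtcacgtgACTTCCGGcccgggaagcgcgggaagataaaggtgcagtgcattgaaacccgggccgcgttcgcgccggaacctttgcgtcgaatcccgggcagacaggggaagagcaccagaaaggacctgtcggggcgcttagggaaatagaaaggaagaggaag

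Subunits of oxidative phosphorylation were mostly higher. Of 77, 73 were measured, 62 lay above 0, 16 rose and 0 fell, with a median of 0.24 that was 0.07 with the trend on gene span removed. Uqcr10, a small subunit of complex III, was at 8.29, 8.61 and 8.48 against 7.74, 7.78 and 7.79 (0.69 ± 0.11, adjusted p = 0.00658), and Ndufs5 of complex I rose by 0.61 ± 0.11. Proteasome subunits had 10 of 41 rising and 0 falling, with a median of 0.17 that was 0.05 with the span trend removed. Psmb3 was at 7.50, 7.52 and 7.50 against 6.63, 6.33 and 6.38 (1.06 ± 0.17, adjusted p = 0.00658), while the wild types differed by 0.45. Antioxidant genes and NRF2 targets had 8 of 36 rising and 0 falling, with a median of 0.31 that was 0.15 with the span trend removed. Gstm5, a glutathione transferase gene, rose by 0.59 ± 0.11 and Gpx4, which reduces lipid peroxides, by 0.46 ± 0.10. Gpx4 lost the call without 118Q replicate 3 (adjusted p = 0.0618), and the calls of Uqcr10, Ndufs5, Psmb3 and Gstm5 held whichever array was left out.

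Chaperones and folding genes, which cells induce when proteins misfold, had no common direction. Of 44 cytosolic chaperones measured, 2 rose and 4 fell (13.6% called, beside 13.7% of all genes). Their median of 0.05 turned to -0.09 both with the trend on gene span removed and with the poly-A mean as a covariate. Hspa4, an HSP110 exchange factor, was at 6.31, 6.43 and 6.54 against 7.09, 7.03 and 7.36 (-0.73 ± 0.12, adjusted p = 0.00676), whereas Cryab, a small heat shock protein of oligodendrocytes and astrocytes, was at 7.39, 8.01 and 7.95 against 6.68, 7.13 and 7.02 (0.84 ± 0.21, adjusted p = 0.0246). Cryab lost the call without 11Q replicates 1 or 3 or 118Q replicates 2 or 3 (adjusted p = 0.0603 to 0.0996). Of 36 endoplasmic reticulum folding and stress genes, 3 rose and 1 fell (11.1% called), with a median of 0.05 that was -0.12 with the span trend removed. Fbxo2, a ubiquitin ligase adaptor for glycoproteins in neurons, was at 7.42, 7.39 and 7.41 against 6.89, 6.59 and 6.72 (0.67 ± 0.11, adjusted p = 0.00629), and Sel1l, of the degradation machinery, fell by 0.51 ± 0.10. Lysosomal genes had 4 of 48 rising (8.33%), among them Cd68, where 10.1% of all genes rose. Their median was 0.03, and -0.05 with the span trend removed.

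**Figure D3:**
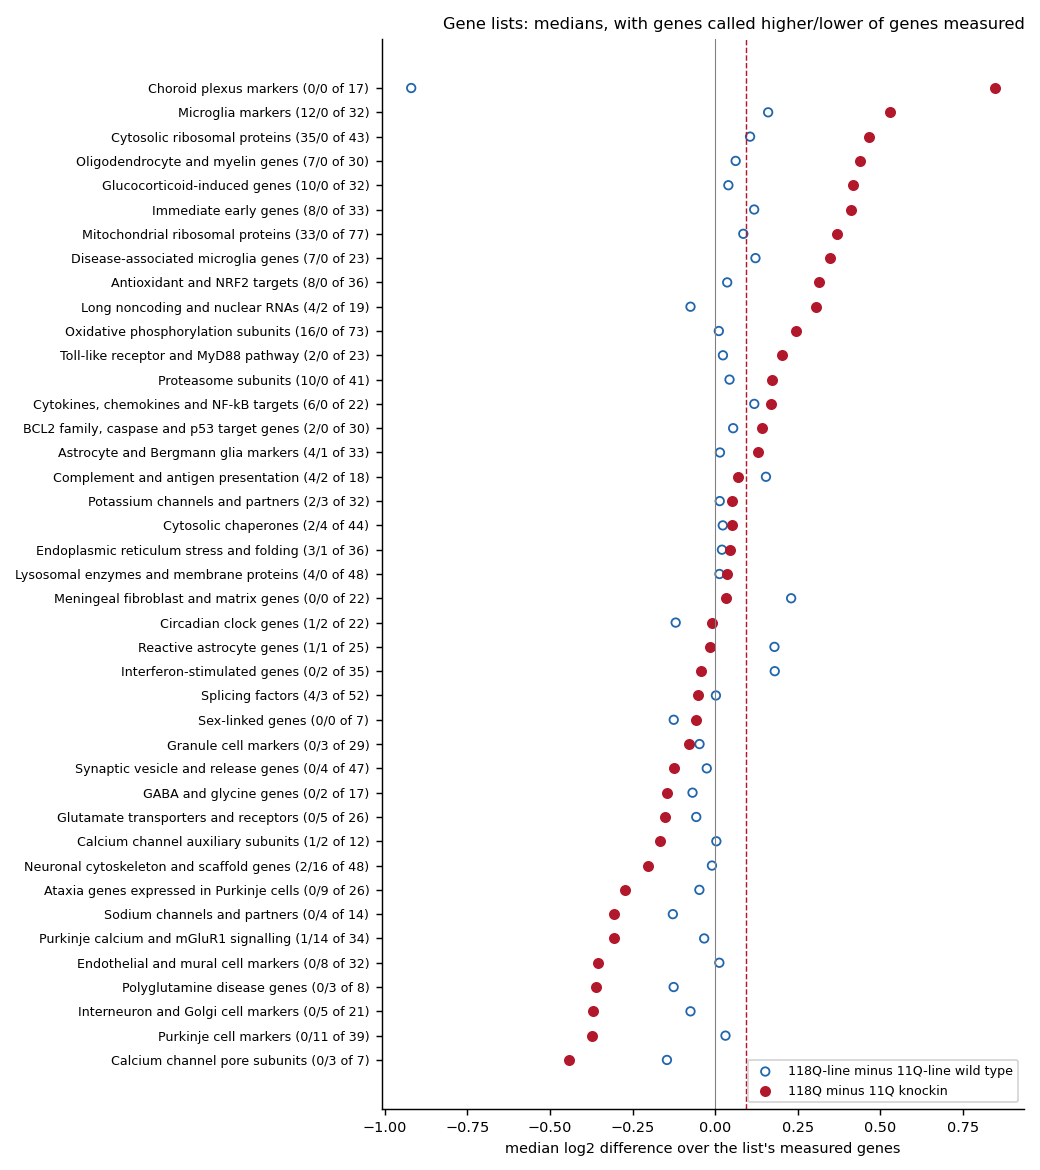
Median log2 difference of each gene list with at least 5 measured members, for 118Q minus 11Q knockins (filled) and for the wild types of the same lines (open), with the numbers called higher and lower of those measured; the dashed line is the median of all genes, 0.09. The cytosolic ribosomal, microglial and glucocorticoid-induced lists lie above it, with medians of 0.47, 0.53 and 0.42, and the Purkinje cell, interneuron and endothelial lists below it, with -0.37, -0.37 and -0.35.

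Genes of blood vessels were lower. Of 34 endothelial and mural cell markers, 32 were measured, 25 lay below 0, 8 fell and 0 rose, with a median of -0.35 that was 0.19 with 18S RNA as a covariate. Flt1, a VEGF receptor, was at 4.24, 3.82 and 3.82 against 4.93, 5.19 and 4.95 (-1.06 ± 0.16, adjusted p = 0.00586), Kdr, the main VEGF receptor, was at 3.64, 3.42 and 3.07 against 4.14, 4.49 and 4.32 (-0.94 ± 0.18, adjusted p = 0.00902), and Fn1, fibronectin, fell by 1.16 ± 0.18. These 3 calls held whichever array was left out. The median deviation of the list was -0.07, -0.39 and -0.27 in the 118Q knockins and -0.11, 0.21 and 0.17 in the 11Q knockins, so the groups overlapped at the level of the list, since 11Q replicate 1 lay below 118Q replicate 1.

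Oligodendrocyte genes had 30 of 33 measured, 25 above 0, 7 rising and 0 falling, and a median of 0.44 that was 0.09 with either 18S RNA or the poly-A mean as a covariate. Plekhb1 was at 9.45, 9.97 and 9.87 against 8.71, 9.02 and 8.97 (0.86 ± 0.15, adjusted p = 0.00836). Mbp, the myelin basic protein gene, differed by -0.13 and was not called. Aspa, Ermn and Sox10, all of oligodendrocytes, rose by 0.96, 0.86 and 0.63, and lost the call without 11Q replicate 1 or 118Q replicate 3 (adjusted p = 0.0563 to 0.079), and Aspa also without 11Q replicate 3 (0.0558) and Ermn and Sox10 without 118Q replicate 2 (0.0724 and 0.0528). Astrocyte and Bergmann glia genes had 4 of 33 rising and 1 falling, where 10.1% of all genes rose and 3.6% fell. Ntsr2, a neurotensin receptor of astrocytes, was at 8.31, 8.61 and 8.58 against 7.16, 7.68 and 7.63 (1.01 ± 0.17, adjusted p = 0.00701). The median of the astrocyte and Bergmann glia list, 0.13, turned to -0.02 with the poly-A mean. Of 25 reactive astrocyte genes, S100a10 rose and H2-D1, for which no direction is drawn, was called lower (8% called, beside 13.7% of all genes). S100a10 lost the call without 118Q replicates 2 or 3 or any array of the 11Q knockins (adjusted p = 0.0611 to 0.125). Gfap, the standard gene of reactive astrocytes, was at 4.94, 5.09 and 5.02 against 4.20, 4.60 and 4.02 for its brightest probe set, which was not called (0.74, adjusted p = 0.0541). Its other 2 probe sets, nearly as bright, were higher by 1.62 and 1.33 without overlap (unadjusted p = 0.000276 and 0.00103 in limma), and the brightest was at -0.38 with 18S RNA as a covariate.

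Choroid plexus markers had the widest spread and no call. Of 19, 17 were measured, 15 lay above 0, and the median difference was 0.85, but -0.92 in the wild types. The mean level of the list was 5.21, 4.85 and 2.96 in the 118Q knockins and 2.84, 2.45 and 5.02 in the 11Q knockins, so each group held mice with high and with low levels of these genes. With Ttr as a covariate, 1334 genes were called, 1223 of them among the 1732. Meningeal and matrix genes had 0 of 22 called in limma. Among 3 erythroid genes measured, Alas2, of haem synthesis in red cells, fell by 1.16 ± 0.25 (adjusted p = 0.0139, and 0.051 and 0.0669 without 11Q replicate 1 or 118Q replicate 3).

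**Figure D4:**
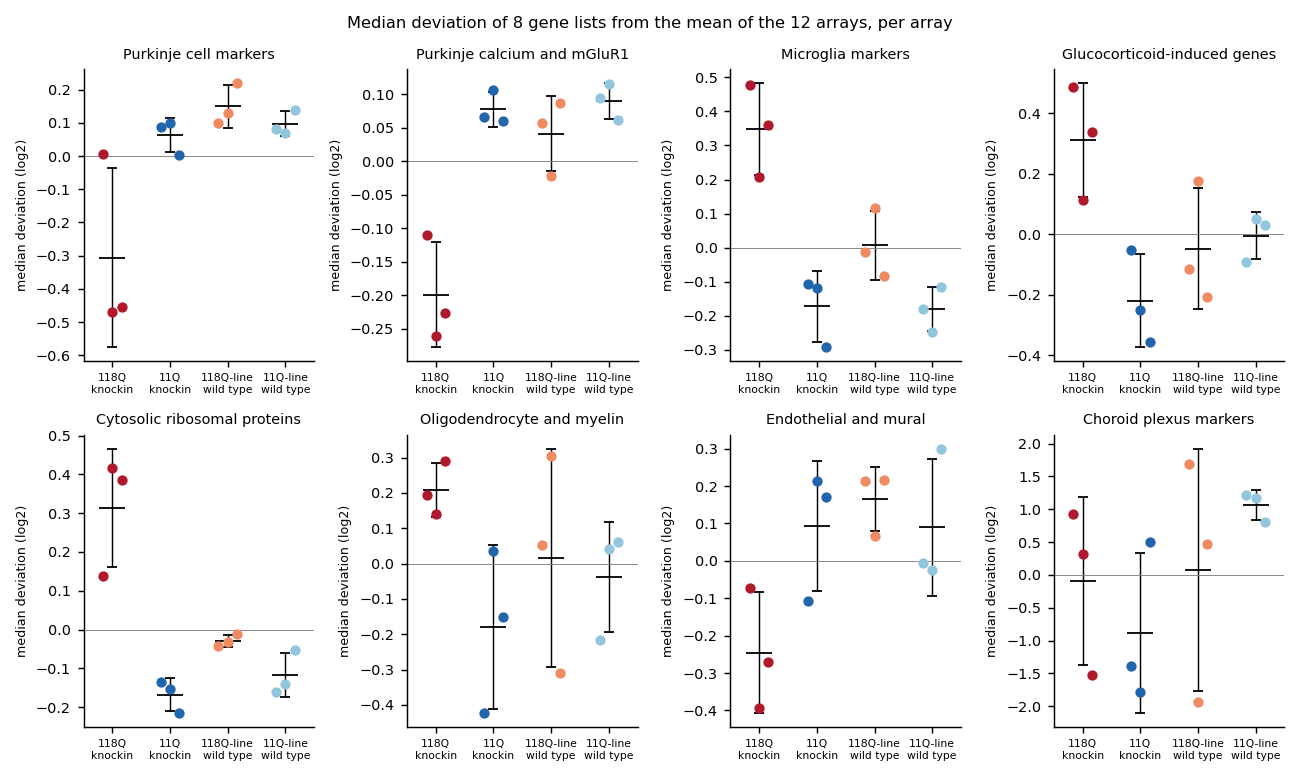
Median deviation from the mean of 12 arrays, on the log2 scale, of 8 gene lists in each array of the 4 groups. The Purkinje cell list is at 0.01, -0.47 and -0.46 in the 118Q knockins, the microglial list lies above the 11Q knockins in all 3, and the choroid plexus list ranges from -1.53 to 0.93 within the 118Q knockins.

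The difference between the knockins followed the genomic span of the genes, the distance from the start to the end of the transcribed region. Of 3191 genes spanning under 10 kb, 19.1% rose and 1.13% fell, with a median of 0.21. Of 730 genes spanning over 200 kb, 3.84% rose and 15.6% fell, with a median of -0.12. Genes that rose had a median span of 10.5 kb and those that fell 103 kb, against 24 kb over all genes. Over 12612 genes the Spearman correlation of the difference with span was -0.335, and it was -0.223 for the wild types of the same lines; both are descriptions across genes that share arrays. With this trend removed from each array, 819 genes were called, of which 46.0% were higher (377 rose and 442 fell), instead of 73.7%, and 665 of them were among the 1732. Ribosomal and mitochondrial genes are short and channel and adhesion genes are long, so the lists above differ in span as well as in function. With the trend removed, Fgf14 differed by -1.77 (adjusted p = 0.0005), Cacna1a by -0.54 (0.0425), Slc1a6 by -1.14 (0.0111), Trem2 by 0.79 (0.0111) and Rps18 by 0.59 (0.0116).

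**Figure D5:**
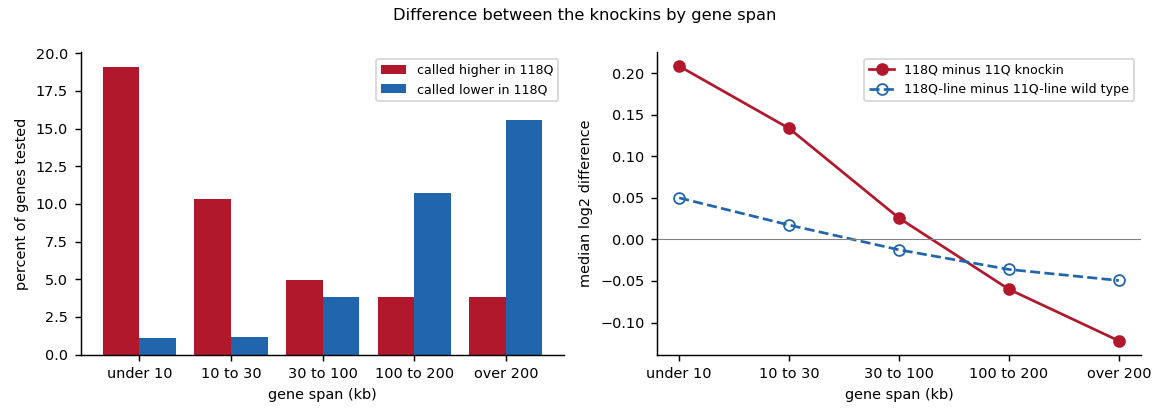
Percent of genes called higher and lower in the 118Q knockins, and median log2 differences of the knockins and of the wild types, in 5 classes of genomic span (kb). The percent called higher falls from 19.1 in genes under 10 kb to 3.84 in genes over 200 kb, and the percent called lower goes from 1.13 to 15.6.

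The wild types of the 118Q line were compared with those of the 11Q line in the same way, since neither carries a knockin allele. There, 0 genes (0%) were called in limma and 378 had an unadjusted p below 0.05, with a smallest adjusted p of 0.387 and a median difference of 0.01. The signs still leaned the same way. Of the 1732 genes called between the knockins, 85.5% had a wild type difference of the same sign, against 67.4% of all genes, and the wild type medians were 0.10 for genes that rose and -0.13 for genes that fell, beside 0.53 and -0.59 between the knockins. The test of the difference of the 2 line differences called 0 genes (0%) in limma, with 1392 at an unadjusted p below 0.05 and a smallest adjusted p of 0.132. So for no single gene was the knockin difference shown to exceed that between the wild types after adjustment.

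Among the genes described here, those nearest to that threshold were Il20rb (0.86 ± 0.14), Fgf14 (-1.61 ± 0.28) and Tuba8 (-1.17 ± 0.21), with unadjusted p of 5.15e-05, 6.63e-05 and 8.86e-05. Hddc2, Nckap1l and 3 RIKEN clone genes, looked up after their values were seen, lay as near. Il20rb and Tuba8 differed between the wild types by -0.00 and 0.15. Fbxo2 (0.76 ± 0.15) and Kcnq1ot1 (-1.22 ± 0.24) were next among the genes described, with unadjusted p of 0.000247 and 0.000262 in limma. Of the 1732 called genes, 1033 had an unadjusted p below 0.05 in this test, and of all 12672 genes tested 1392 did. The test holds the knockin difference by which the 1732 genes were called, so a raised share among them was fixed in advance. By list, 29 of 43 cytosolic ribosomal genes and 8 of 32 microglial genes had such a p. So did 10 of 32 glucocorticoid-induced genes and 13 of 39 Purkinje cell genes. The same limit holds for these lists, which were described above by the same knockin difference.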

How the data were processed

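Gene expression was measured in the cerebellum of 12 mice on Affymetrix arrays, 3 per group, with groups and replicate numbers taken from the sample titles. The deposited values are log2 levels, 1 per probe set; per the submitters' processing notes the authors used RMA, for which no version is given in the sources used here. Array medians lay between 2.21 and 2.38, and no further normalization was applied. Per the labels, RNA came from column extraction with DNase treatment.

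Of 45101 probe sets, 34958 had 1 gene symbol, 932 had several and 9211 had none in the array annotation. The 40% with the lowest mean over 12 arrays were removed (log2 mean under 1.58), leaving 27060, and the brightest probe set of each symbol was kept, which gave 12672 genes. The 4 group means were fitted to all 12 arrays with limma 3.58.1 in R 4.3.3 (8 residual and 4.61 prior degrees of freedom). Contrasts were 118Q knockin minus 11Q knockin, the same for the wild types, and the difference of both, two-sided, with Benjamini-Hochberg adjustment over all genes; a gene was called at an adjusted p below 0.05. Differences are given ± SE, and "rose" and "fell" are used of called genes. Counts of called list members stand beside the 10.1% of all genes that rose and the 3.6% that fell. Single array measures were compared by exact permutation tests. The script was tested on simulated data. The number of arrays limits the precision.

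Genes were named by rule: Cacna1a, the 15 largest rises and 15 largest falls among called genes without overlap between groups, and up to 4 members of each of 42 lists by smallest p, passing over clones and predicted genes. Genes outside this rule (Calb1, Car8, Pcp2, Mbp, Fos, C1q and other list members given by a difference alone) were named after their values were seen. The comparison, the members and the lists were chosen with earlier results of these data known. Gene spans (12612 genes) and promoter windows came from RefSeq tables of GRCm38.p6, used for genes and sequences only. Deviations from the group means of same-numbered arrays correlated at 0.01, -0.09 and -0.26 for the knockins and at 0.26, 8e-04 and 0.45 for the wild types, not all above 0.1, so replicate numbers were not taken to pair the arrays. Alternatives varied the filter, the probe sets, the scaling, the fit, the threshold, covariates and the arrays left out.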

Additional observations from a re-analysis of the deposited data

Results flagged for a closer look

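Probe sets that the array annotation gives no single gene symbol stand outside the comparison of genes. Of 4234 such probe sets above the filter, 1234 (29.1%) were called between the knockins by limma, 267 higher (6.31%) and 967 lower (22.8%), against 10.1% and 3.6% of genes. The calls among probe sets left out of the gene comparison thus went mostly towards lower levels. What these probe sets measure was not tested.

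The poly-A spike-in controls are not mouse genes and lie outside the main measurement, yet they differed between the knockins. Their mean was higher in the 118Q knockins by 1.5 log2 units, and dap, lys, phe and thr were each higher without overlap, by 1.34, 1.22, 2.09 and 1.34. The wild types of the 118Q line were higher by 0.65. Its part in the gene differences was not tested beyond the covariate fit.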

How the results depend on the processing

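The 1732 calls between the knockins became 6111 with array weights (from 0.279 for a wild type array to 6.08 for 118Q replicate 3, estimated without convergence), 2892 at an adjusted p below 0.1, 870 when called by unadjusted p (below 0.05) and a 1.5-fold size, 819 with the gene span trend removed, and 0 with 18S RNA or, added after seeing the data, the poly-A mean as a covariate. Leaving out 1 array gave 319 to 2274. Filters, probe set rules, centring, quantile normalization, an intensity trend, Ttr as a covariate and the 6 arrays alone gave 1334 to 2264, within 1.5 times. The replicate block, whose numbers were not taken to pair the arrays, gave 1801 calls, 1578 of them shared. Leaving out both wild type replicates 3, also added after seeing the data, gave 2491. For the wild types the count of 0 became 2 with array weights, 32 by unadjusted p and fold, and 1 with 18S, with Ttr or without wild type replicates 3; leaving out 1 array gave 0 to 1. For the difference of differences it became 612 with weights, 440 by unadjusted p and fold, and 0 to 12 leaving out 1 array. With 18S as a covariate the sign turned for Nr4a3 (-0.0759), Per1 (-0.54), F2r (0.47), Thsd7a (0.21), Shisa6 (0.39), Dner (0.068), Ryr2 (0.081), Grm7 (0.30), Grik3 (0.36), Slc32a1 (0.0648), Slc4a4 (0.10) and Pclo (0.25), none called, and for the medians of the Purkinje cell (0.11), Purkinje calcium (0.0646), GABA (0.0463), interneuron (0.0076), endothelial (0.19), splicing (0.14), reactive astrocyte (0.30) and sex-linked (0.0871) lists. With the poly-A mean it turned for Nr4a3 (-0.0246), Nr4a2 (-0.10), Per1 (-0.0446), Fat2 (0.0195) and Pclo (0.0935), and for the astrocyte (-0.0243), chaperone (-0.088), meningeal (-0.0815), interferon (0.0219) and reactive astrocyte (0.041) medians. With the span trend removed it turned for the chaperone (-0.0899), folding (-0.12), BCL2 (-0.012), complement (-0.12), meningeal (-0.11) and lysosomal (-0.0547) medians. With Ttr as a covariate it turned for the choroid plexus (-0.23), meningeal (-0.0282) and circadian (0.0639) medians. Those of the choroid plexus, circadian, erythroid, interferon, lysosomal, meningeal, reactive astrocyte and sex-linked lists also turned under other settings. The potassium channel median turned with the mean of probe sets (-3e-04), each probe set (-0.14) and without 118Q replicate 3 (-0.0329; 0.1238 at most, without 118Q replicate 1), and that of splicing with the mean of probe sets (0.0098) and without 118Q replicate 2 (0.0021; -0.0914 at least, without 118Q replicate 1). The cause of these changes was not tested. With 3 arrays a group, a median standard error of 0.139 limits what could be called, and dim genes lie near background.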

Other observations

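Long noncoding and nuclear RNAs went both ways: 19 of 23 were measured, 4 rose and 2 fell, with a median of 0.30 that was 0.01 with the poly-A mean as a covariate. Gas5, a host of small nucleolar RNAs, was at 8.19, 8.20 and 8.31 in the 118Q knockins and at 7.79, 7.45 and 7.49 in the 11Q knockins (0.65 ± 0.11, adjusted p = 0.00658 in limma). Other, dimmer probe sets of Gas5 differed by 0.53, 0.18 and 0.18 (unadjusted p = 0.000446, 0.198 and 0.372 in limma). Further hosts of small nucleolar RNAs, Snhg8 and Snhg12, rose by 0.67 ± 0.13 and 0.62 ± 0.12, while Kcnq1ot1 fell. Of 52 splicing factors measured, 4 rose and 3 fell (13.5% called, beside 13.7% of all genes). Snrpe, a core spliceosomal protein, rose by 0.64 ± 0.11, and Son, a large nuclear speckle protein, fell by 0.36 ± 0.10 (adjusted p = 0.0388, and 0.052 to 0.132 without any of 6 arrays).

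Circadian clock genes had 1 of 22 rising and 2 falling (13.6% called, beside 13.7% of all genes). Per1, which glucocorticoids and activity also induce, was at 6.78, 6.95 and 6.82 against 6.30, 6.01 and 5.89, and Dbp, a clock output gene, was at 7.21, 6.71 and 6.80 against 7.71, 7.85 and 7.22. Dbp differed by -0.69 between the knockins and by -0.64 between the wild types. Both calls were lost without 118Q replicate 3 (adjusted p = 0.118 and 0.137) and without other arrays in turn, up to 0.132 and 0.14. Of 30 BCL2 family, caspase and p53 target genes measured, 2 rose (6.67%), Cdkn1a and Diablo, and 0 fell, where 10.1% of all genes rose. Diablo lost the call without 5 of the knockin arrays in turn (adjusted p = 0.0797 to 0.141). None of 7 sex-linked genes measured was called in limma, and Kdm5d, on chromosome Y, was at 4.56, 4.36 and 4.58 against 4.21, 4.46 and 4.51.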
